A study of Mus musculus with 48 samples.

Results

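The 4 Hox clusters, the arrays of homeobox genes that set position along the body axis, were examined for peaks of CTCF and cohesin in mouse embryonic stem cells. Members were taken by position alone: every peak that touched the span of the 38 listed Hox genes of a cluster extended by 10 kb on each side. The regions, in build mm10, were HoxA on chromosome 6 from 52152417 to 52270880 (10 genes), HoxB on chromosome 11 from 96184316 to 96378254 (10 genes), HoxC on chromosome 15 from 102911131 to 103046856 (9 genes) and HoxD on chromosome 2 from 74658225 to 74775142 (9 genes). Together they covered 565 kb and held 1354 of the 1444924 peaks of 22 lists, of which 162 were FLAG, 980 SMC3 and 212 CTCF antibody peaks. HoxA held 459 of them, HoxC 386, HoxB 355 and HoxD 154.

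The cells were E14Tg2a embryonic stem cells of strain 129/Ola. All groups carried an auxin degron on endogenous CTCF and a doxycycline-inducible Ctcf transgene, which was wild type (WT) or had 1 of 9 substitutions: H455R, R448Q, Q418R, R377H, R377C, K365T, S354F, R342C or R339Q, each numbered by its residue. All FLAG and SMC3 groups used here received 500 µM indole-3-acetic acid (IAA), which triggers destruction of the endogenous protein, and 1 µg/ml doxycycline for 2 days. CTCF antibody groups were WT cells without treatment and with both agents. Binding was mapped by ChIPmentation, chromatin immunoprecipitation with transposase tagging on the beads: FLAG for the transgene protein, SMC3 for a core cohesin subunit, and CTCF itself. The labels list 48 samples in 24 groups of 2 replicates, and each peak list pools the 2 replicates of its group. No spread between replicates can therefore be had, no comparison carries a p-value, and the exact (Clopper-Pearson) 95% intervals in parentheses cover counting error over sites only. Whether each genotype is 1 clone is not given in the sources used here, and peak lists hold no expression values against which the labelled cell type could be checked.

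Hox genes of a cluster lie in the order in which they act along the body, and they are opened in that order during development. In pluripotent cells the clusters are largely silent and carry Polycomb marks. CTCF is a zinc-finger protein that binds DNA and halts loop-extruding cohesin; within the Hox clusters its sites are known as boundaries between active and Polycomb-covered genes, among them sites at Hoxa5 and Hoxa6 and between Hoxa7 and Hoxa9.

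Of the 38 genes, 22 had a promoter in the RefSeq table of GRCm38.p6, and 2 of these promoters are shown because they carry contrasting FLAG patterns. They were chosen after their values were seen. The Hoxa5 promoter lay inside the highest-valued Hox FLAG peak of WT cells. The Hoxd10 promoter had no WT FLAG peak but FLAG peaks in 4 mutants. Each line gives the 250 bases before the gene start, 5′ to 3′ on the gene's strand, with capitals for a match to CCNNNNGNNGGC, a loose form of the CTCF core motif, on either strand.
Hoxa5, chr6:52204588-52204837, minus strand: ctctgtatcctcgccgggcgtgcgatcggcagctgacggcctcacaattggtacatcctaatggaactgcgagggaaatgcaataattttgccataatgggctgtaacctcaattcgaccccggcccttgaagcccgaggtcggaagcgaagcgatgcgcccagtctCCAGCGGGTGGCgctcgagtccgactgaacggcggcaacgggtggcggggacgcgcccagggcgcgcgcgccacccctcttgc
Hoxd10, chr2:74691641-74691890, plus strand: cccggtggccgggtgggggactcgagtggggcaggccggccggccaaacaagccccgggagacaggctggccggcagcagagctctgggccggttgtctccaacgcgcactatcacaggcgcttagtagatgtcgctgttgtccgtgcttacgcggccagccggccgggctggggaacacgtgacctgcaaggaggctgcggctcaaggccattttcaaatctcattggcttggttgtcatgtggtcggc
The capitals in Hoxa5 start 83 bases before the gene start, and Hoxd10 had no match. The loose form was chosen after the sequences were read, and 25.3% of the 32851 promoter windows in the table (250 bases before to 50 after the start) held it, as did 10 of the 24 Hox windows. The stricter form planned first, CCNNNAGNNGGC, was in 8.61% of all windows and in 4 Hox windows, those of Hoxc4, Hoxd11, Hoxd3 and Hoxa11. None of those 4 windows held a FLAG or CTCF antibody peak. A match is a description of letters and not a measured site.

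WT FLAG peaks marked 16 sites in the Hox regions: 5 in HoxA, 5 in HoxB, 3 in HoxC and 3 in HoxD. That is 2.83 peaks per 100 kb, against 0.773 per 100 kb over all gene regions (gene spans with the same 10 kb flanks, merged, 1541 Mb). Of the 38 genes, 29 lay within 10 kb of a WT FLAG peak, and 7 genes were touched by one. Hoxd1, at the anterior end of HoxD, was the farthest, 46941 bp away. The gene counts were not made over all genes, and 1 peak can lie within 10 kb of several Hox genes. Sites stood 5.05 to 38.3 kb from the previous one in their cluster. Of the 16, 6 fell inside the span of a listed gene and 10 between genes.

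All 16 sites also had a CTCF antibody peak in untreated cells (91.2% over all 15392 WT FLAG sites) and in treated cells (91.1% over all). Peak values, scores of the authors' peak caller that are compared here only within a list, ran from 33.09 to 92.7 in the untreated list, all within its top 11.7%. In the treated list they ran from 49.03 to 211.02, all within its top 13.5%. In the WT FLAG list itself the 16 spread widely, from rank 781 to rank 13256 of 15392, and 8 were in its upper 50%. The Hox sites were thus strong by the CTCF antibody and spread over much of the range by FLAG. How many of all WT FLAG sites rank as high by the antibody was not counted. Over all untreated CTCF antibody peaks, a FLAG peak of any genotype lay at 94.2% of the top 10% and at 4.97% of the lower 50%.

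**Figure D1:**
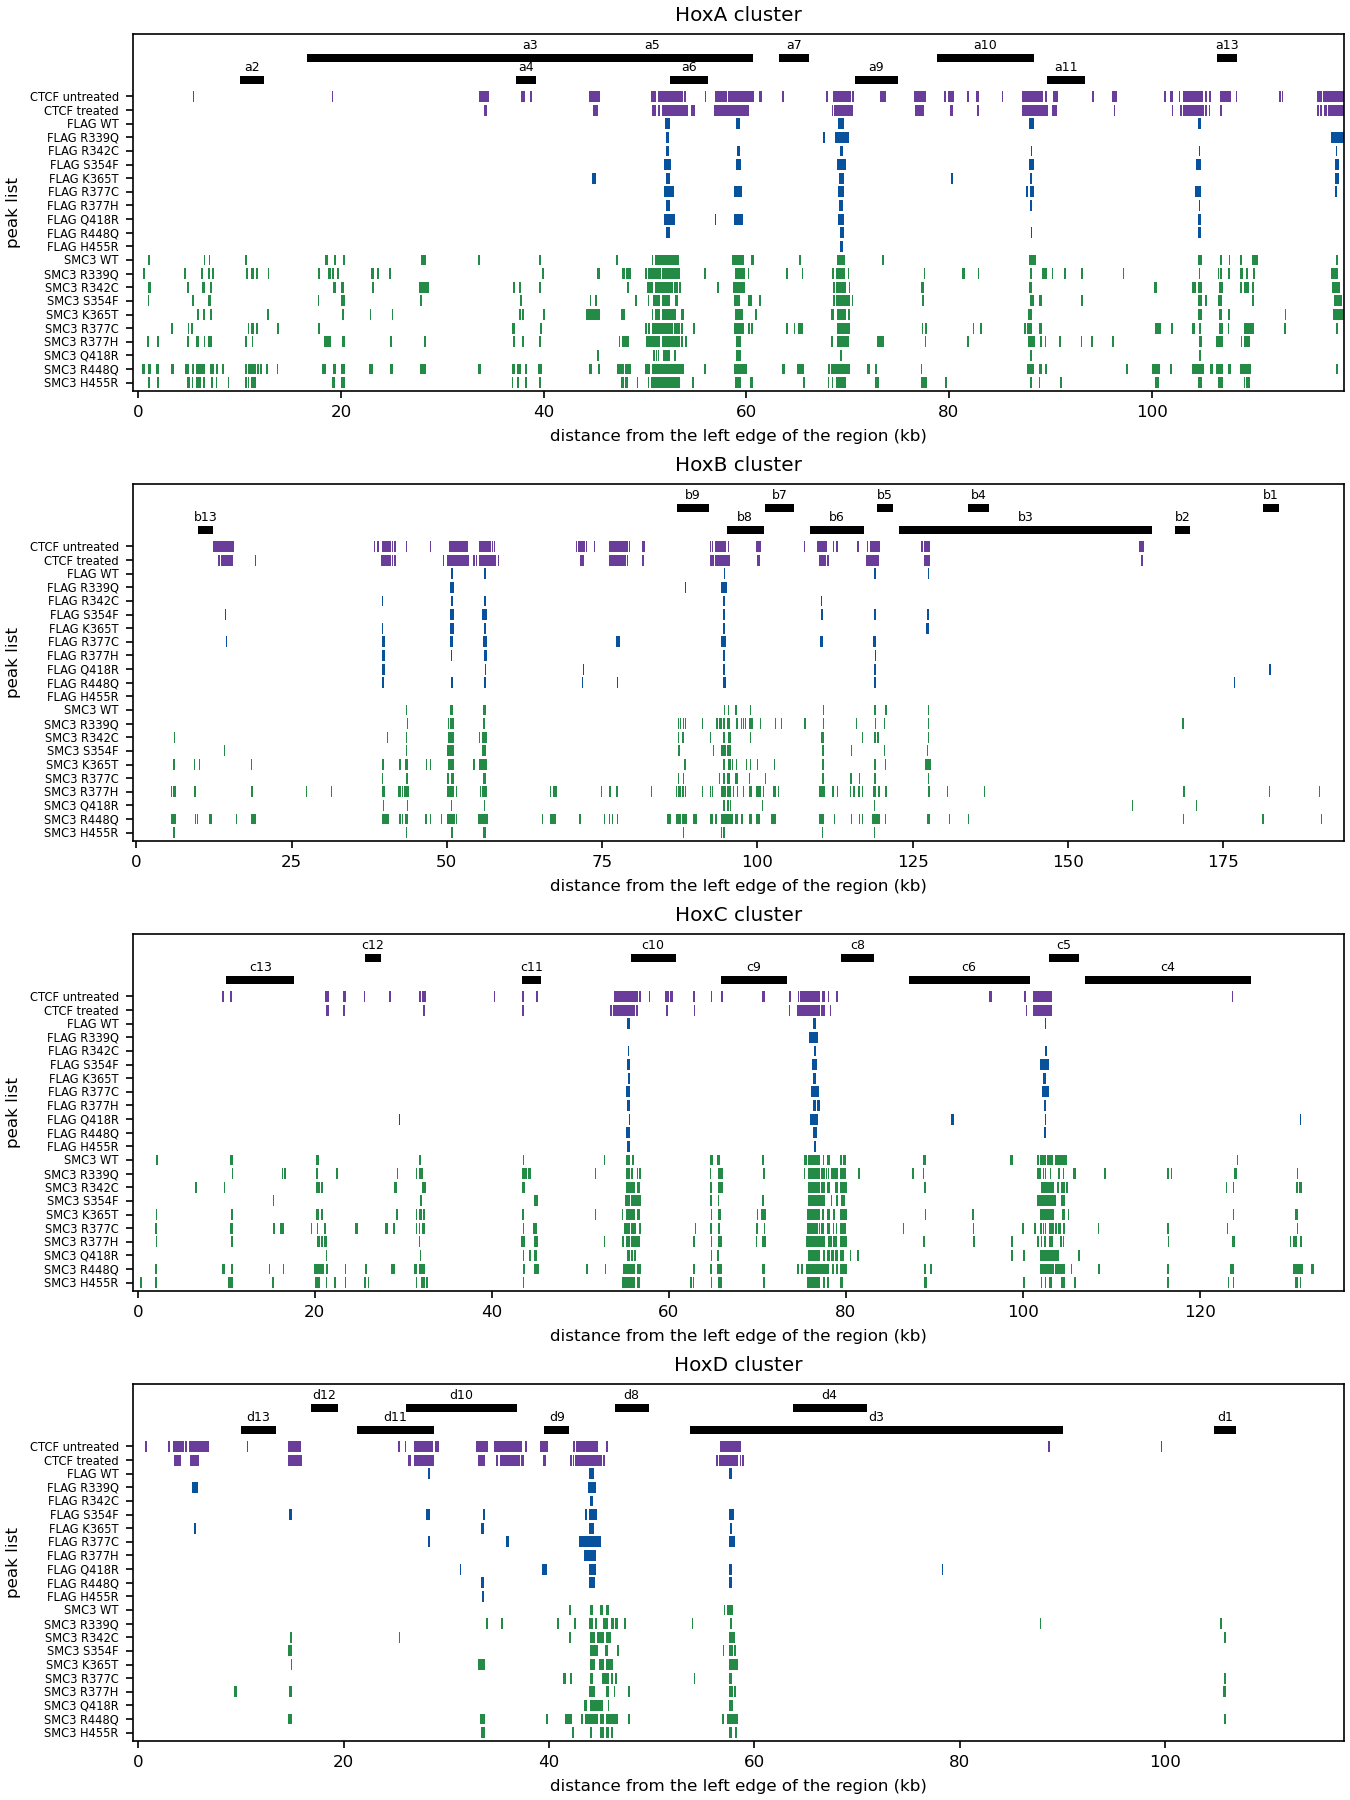
Peaks of all 22 lists across the 4 Hox regions, with distance from the left edge of each region (kb) on the x axis and 1 row per list (purple CTCF antibody, blue FLAG, green SMC3); black bars are gene spans. FLAG peaks stack in narrow columns at the 16 WT sites, and SMC3 peaks are more numerous and spread wider, most of all in R448Q (154) and R377H (139).

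In HoxA, the site with the highest WT value was at Hoxa5, a gene of cervical and thoracic patterning and of lung development. It covered the gene's start and ended 1 bp from Hoxa6 (chromosome 6, 52204423 to 52204857). Its FLAG value was 8.00 in WT, 2.71 in R339Q, 5.88 in R342C, 6.44 in S354F, 6.43 in K365T, 8.51 in R377C, 5.84 in R377H, 17.63 in Q418R and 5.98 in R448Q, and H455R had no peak. Within its own list, the peak was in the top 3.02% in Q418R, in the top 5.07% in WT and only in the top 63.6% in R339Q. SMC3 was present there in all 10 genotypes and always within the top 2.22% of the list, H455R included, where it was in the top 0.432%.

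The site between Hoxa7 and Hoxa9 (52221493 to 52222015) was 1 of 2 Hox sites with a FLAG peak in WT and all 9 mutants. Its FLAG value was 7.02 in WT, 12.01 in S354F, 4.91 in R377H and 5.10 in H455R. Its place in its own list ran from the top 1.93% in S354F to the top 36.9% in R377H, with the top 8.5% in WT and 11.1% in H455R. Over all WT sites, 5.04% were kept in all 9 mutants. The other HoxA sites were lost more often. Between Hoxa6 and Hoxa7 (52211444 to 52211838; WT value 3.20) FLAG was missing in R339Q, K365T, R377H, R448Q and H455R. In Hoxa10, a posterior gene needed in the uterus (52240347 to 52240766; WT value 5.21), it was missing in R339Q, Q418R and H455R. Between Hoxa11 and Hoxa13, which pattern the forearm and the hand (52256998 to 52257293; WT value 3.64), it was missing in R339Q, K365T and H455R. SMC3 was present at every one of these HoxA sites in all 10 genotypes.

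HoxB has a long stretch without listed genes between Hoxb13, the most posterior member, and Hoxb9, which helps shape the rib cage. There lay 2 of its 5 FLAG sites. The first (chromosome 11, 96235014 to 96235251; WT value 5.92) was missing in Q418R and H455R. In S354F it had the value 12.94 and in K365T 13.84, the top 1.36% and 1.34% of those lists, against the top 15.4% in WT. The second (96240299 to 96240572; WT value 3.73) was missing in R339Q and H455R and reached the top 0.733% of the S354F list. Next to Hoxb8 (96278869 to 96279049; WT value 3.15) FLAG was absent only from H455R among the 10 lists. It stood in the top 5.81% in R339Q against the top 64.4% in WT.

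The remaining HoxB sites were weak in WT. Between Hoxb6 and Hoxb5 (96303117 to 96303355; WT value 2.77) 5 mutants kept FLAG. In Hoxb3, between Hoxb5 and Hoxb4 (96311741 to 96311852; WT value 2.52), only S354F (3.56) and K365T (10.84) had a peak. K365T stands apart at this site: its FLAG peak was in the top 3.92% of its list and its SMC3 peak in the top 1.3%, while the WT peaks were in the top 86.1% and 99.5%. SMC3 was absent there in Q418R and H455R. H455R had no FLAG peak in the HoxB region at all.

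HoxC kept the largest share of its sites, 24 of 27 site and mutant pairs (88.9%), against 33 of 45 in HoxA (73.3%), 29 of 45 in HoxB (64.4%) and 15 of 27 in HoxD (55.6%). With 3 to 5 sites a cluster, these shares rest on few sites. They were also not matched for WT value. Over all WT FLAG sites, every mutant kept more in the highest quartile of WT FLAG value than in the lowest. R342C, for example, kept 96.9% and 43.1%, and K365T 85.8% and 26%. The site 71 bp from Hoxc10, a gene of lumbar patterning (chromosome 15, 102966425 to 102966725), had a WT value of 5.33 and was missing in R339Q alone. In H455R it had the value 9.63 and was in the top 1.32% of that short list. Between Hoxc9 and Hoxc8 (102987454 to 102987791), FLAG was present in all 10 genotypes. Its value was 4.07 in WT, the top 40.5% of that list, 10.41 in R377C (top 9.97%), 3.90 in R342C (top 58.8%) and 3.93 in H455R (top 23.7%). Between Hoxc6 and Hoxc5 (103013611 to 103013746; WT value 2.84) it was missing in R339Q and H455R.

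In HoxD, the site between Hoxd9 and Hoxd8 (chromosome 2, 74702091 to 74702617) had a WT value of 6.53. The mutant values were 6.28 in R339Q, 9.62 in R342C, 11.47 in S354F, 12.99 in K365T, 20.51 in R377C, 19.78 in R377H, 14.26 in Q418R and 9.89 in R448Q, with none in H455R. Both R377 mutants had it near the head of their lists, in the top 0.712% for R377C and 0.352% for R377H. The site in Hoxd3 (74715794 to 74716039; WT value 3.11) was missing in R339Q, R342C, R377H and H455R. The site in the overlapping spans of Hoxd11 and Hoxd10 (74686463 to 74686614; WT value 2.55) was kept only in S354F (3.24) and R377C (3.37). It was the single Hox WT FLAG site without SMC3 in WT, and no mutant list had SMC3 there either.

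**Figure D2:**
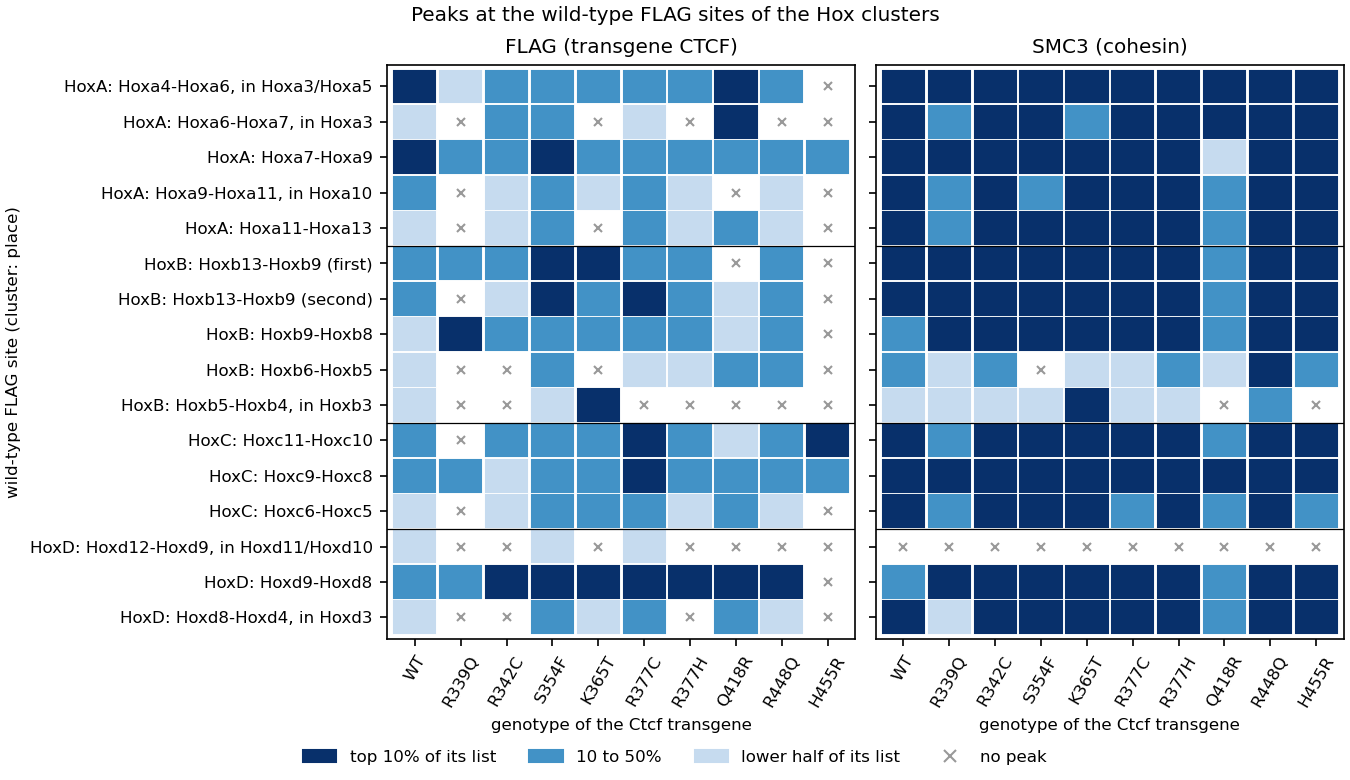
FLAG (left) and SMC3 (right) at the 16 WT FLAG sites of the Hox clusters, rows being sites in genome order and columns genotypes; colour gives the peak's place in its own list and a cross marks no peak. The H455R column of FLAG holds 3 peaks, while the SMC3 columns are filled for 14 or 15 of 16 sites in every genotype. List lengths differ: H455R had 3855 FLAG and 98168 SMC3 peaks.

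H455R kept 3 of the 16 WT FLAG sites, 18.8% (4.05 to 45.6), against 10.5% over all WT FLAG sites. R339Q kept 6, 37.5% (15.2 to 64.6), against 53.1% over all. R342C, K365T, R377H and Q418R each kept 12, 75% (47.6 to 92.7), where all sites gave 72.2%, 52.1%, 71.8% and 59.2% in that order. R448Q kept 13, 81.2% (54.4 to 96), against 75.2%. R377C kept 15, 93.8% (69.8 to 99.8), against 89.6%, and S354F kept all 16 (79.4 to 100), against 86.2%. In every mutant the interval of the Hox share contained the share over all sites.

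The mean over the 9 mutants was 70.1% ± 25.9 (SD) for Hox sites and 63.3% ± 23.8 for all sites, and the Hox share was the higher one in 8 mutants. Part of this comparison moved with the CTCF antibody peaks that all 16 Hox sites have. Among the 14022 WT FLAG sites with a peak in both CTCF antibody lists the mean was 68.3%, and the Hox share was higher in 5 mutants and lower in 4. All mutants share the 1 WT list, and the FLAG lists ran from 3855 peaks (H455R) to 30462 (R377C), and list length differs with genotype. With every FLAG list held to its 3855 strongest peaks, WT had 6 Hox sites left, and of these S354F kept 83.3%, K365T 66.7%, R339Q, R377C, Q418R and R448Q 50%, R342C and H455R 33.3%, and R377H 16.7%. These shares rest on 1 to 5 of 6 sites, and the same shares over all WT FLAG sites were not counted. R377H was then the lowest, with H455R and R342C next, so H455R stayed among the lowest and R339Q did not.

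**Figure D3:**
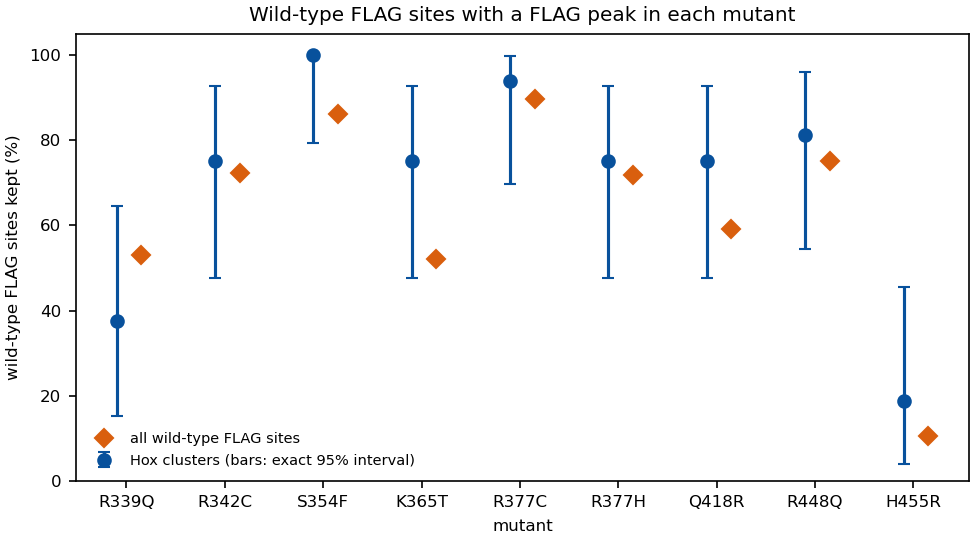
Share of WT FLAG sites (%) with a FLAG peak in each mutant, for the 16 Hox sites (blue circles; bars are exact 95% intervals over sites) and for all 15392 WT FLAG sites (orange diamonds). R339Q is the single mutant whose Hox share, 37.5%, lies below that of all sites, and each blue bar spans its orange diamond.

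In 7 of the 9 mutants, more of the Hox WT FLAG sites had an SMC3 peak than had a FLAG peak, and the same 7 mutants showed this over all WT FLAG sites. SMC3 was at 15 of 16 sites in WT (81.2% over all WT FLAG sites), R339Q (65.7%), R342C (83.9%), K365T (76.8%), R377C (73.7%), R377H (78.1%) and R448Q (87.3%). It was at 14 in S354F (68.3%), Q418R (62.3%) and H455R (64.9%). At 13 sites SMC3 was present in WT and all 9 mutants, where 45.6% of all sites were, or 49.6% of those with both CTCF antibody peaks. The exceptions were the sites at Hoxd11 and Hoxd10, in Hoxb3, and between Hoxb6 and Hoxb5, where S354F had none.

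Of the 144 pairs of a Hox site and a mutant, 43 had lost FLAG, and 34 of those 43 (79.1%) still had an SMC3 peak in that mutant. Over all sites the share was 49.7%, and over sites with both CTCF antibody peaks 60.7%. These shares too set long SMC3 lists beside shorter FLAG lists, and they were not counted at equal list lengths. By mutant, SMC3 remained at 11 of 13 lost sites in H455R (63.5% over all lost sites), 9 of 10 in R339Q (40.2%), 3 of 4 in R342C (54.3%), K365T (58.4%) and R377H (47.7%), 2 of 4 in Q418R (33.6%), 2 of 3 in R448Q (60.7%) and 1 of 1 in R377C (15.6%). S354F had lost no Hox site; over all sites, 10.2% of those it had lost still had SMC3. The 9 lost pairs without SMC3 came from 2 sites, 7 from the one at Hoxd11 and Hoxd10 and 2 from Hoxb3. None of the 16 sites was without FLAG in all 9 mutants, as 4.79% of all sites were.

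Beyond these sites, SMC3 peaks in the Hox regions numbered 66 in WT (25 in HoxA, 11 in HoxB, 24 in HoxC and 6 in HoxD). The mutants had 132 in R339Q, 81 in R342C, 63 in S354F, 88 in K365T, 114 in R377C, 139 in R377H, 48 in Q418R, 154 in R448Q and 95 in H455R. The SMC3 lists themselves ran from 42030 peaks (Q418R) to 153647 (R448Q). Held to the 42030 strongest peaks of each list, the Hox counts were 33 in WT, 60 in R339Q, 32 in R342C and S354F, 40 in K365T and R448Q, 45 in R377C, 37 in R377H and H455R, and 48 in Q418R. R448Q had the highest count in whole lists and R339Q the highest in equal lists, with 28 peaks in HoxC against 14 in WT. SMC3 peak names include a tag that no source explains. It is b2 in R339Q, b3 in Q418R, a mix of b1 and b2 in S354F and R377C, and b1 in WT and the remaining 5 mutants. The 2 highest equal-list counts thus belong to the 2 lists with b2 or b3 alone, and tag and genotype cannot be told apart there.

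R377H differed from WT mainly in HoxB, where it had 57 SMC3 peaks against 11, and still 18 against 7 in equal lists. R377H peaks lay on both sides: 20 before Hoxb9, in the stretch toward Hoxb13, against 3 in WT, and 37 from Hoxb9 onward against 8. In equal lists these were 8 and 10 for R377H against 3 and 4 in WT. R448Q had 25 and 25 in whole lists but 6 and 7 in equal ones, and K365T 13 and 13 but 5 and 4. In H455R the whole-list counts were 4 and 5, the lowest HoxB total of all genotypes. In HoxA, R377H had 38 peaks against 25 in WT in whole lists and 5 against 8 in equal lists, so the direction there turned with the list length. R339Q had 49 and 17.

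**Figure D4:**
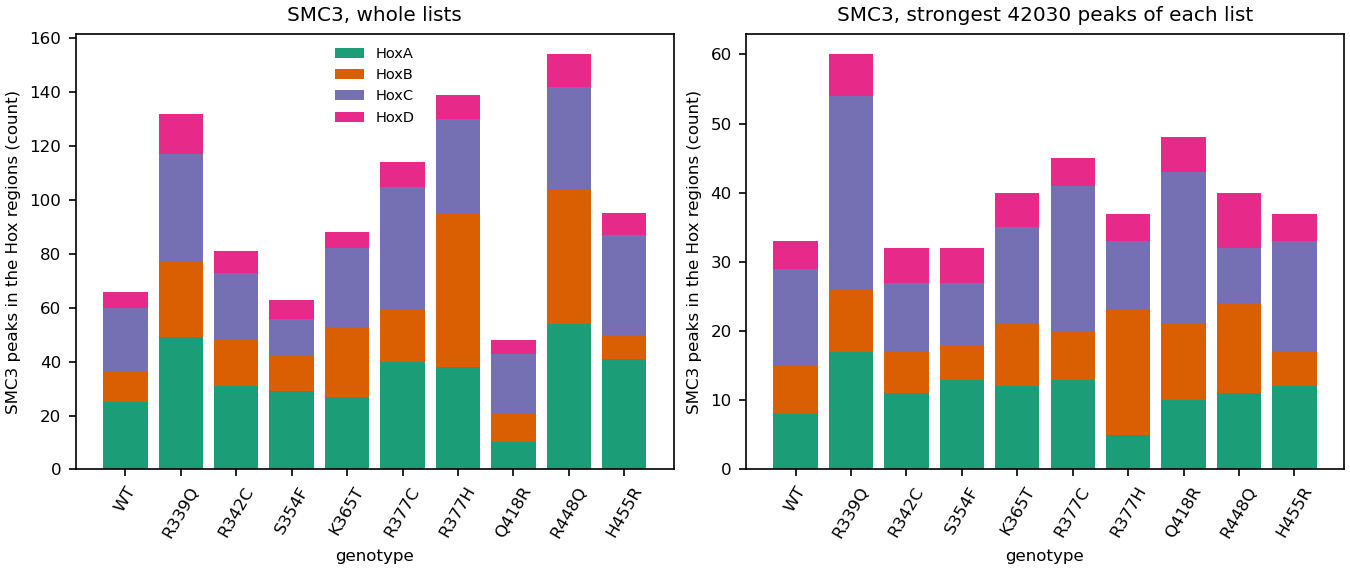
SMC3 peaks in the Hox regions by genotype, stacked by cluster, in the whole lists (left) and in the 42030 strongest peaks of each list (right); the y axis is a count starting at 0. The range of 48 to 154 in whole lists narrows to 32 to 60 in equal lists, and the orange HoxB share is widest in R377H.

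Of the 66 WT SMC3 peaks in the Hox regions, 23 were found in all 9 mutants and none was missing from all of them. Neither count was made over all WT SMC3 peaks, so whether these counts are peculiar to the Hox regions was not tested. R448Q kept 59, 89.4% (79.4 to 95.6), against 77.8% of all WT SMC3 peaks. R377H kept 54, 81.8% (69% over all), R339Q 50, 75.8% (50.5%), R342C 46, 69.7% (73.3%), and K365T 45, 68.2% (57.8%). R377C kept 45, 68.2% (60.7%), H455R 42, 63.6% (60.2%), S354F 40, 60.6% (53.7%), and Q418R, the shortest list, 31, 47% (29.3%). The Hox share was above the share over all peaks in 8 mutants, all but R342C. The order of the mutants differed in equal lists: there, over 33 WT peaks, Q418R kept the most (78.8%), R448Q kept 66.7% and R377H the least (60.6%).

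A CTCF antibody peak of either list overlapped 40 of the 66 WT SMC3 peaks, 60.6% (47.8% over all WT SMC3 peaks). In the mutants the Hox shares were 44.7% in R339Q (42.7% over all), 58% in R342C (40.1%), 69.8% in S354F (47%), 54.5% in K365T (43.2%) and 51.8% in R377C (41.3%). They were 45.3% in R377H (36.7%), 77.1% in Q418R (60.6%), 44.8% in R448Q (35.3%) and 51.6% in H455R (35.4%). All CTCF antibody peaks come from WT cells, so these are places that WT CTCF can occupy.

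The 26 WT SMC3 peaks away from any CTCF antibody and FLAG peak lay in HoxA (13), HoxC (10) and HoxB (3), with none in HoxD. Of the 2 highest per cluster, the 1272 bp peak in Hoxc5 (103014786 to 103016057) had the highest WT value, 4.83, in the top 14.9% of the list. SMC3 was there in all 9 mutants. In S354F its value and rank (8.47, rank 1759) were those found at the nearby WT FLAG site between Hoxc6 and Hoxc5. The same held in Q418R (5.46, rank 5821), where HoxD sites share the value. A wide mutant peak may thus cover both places. In HoxA they were the peak in Hoxa3 (52172616 to 52172786; 2.90 in WT, present in 6 mutants) and the one 1439 bp beyond Hoxa13 (52262319 to 52262881; 3.13, 4 mutants). HoxB had one in Hoxb8 (96280775 to 96281117; 3.16, 6 mutants) and one in Hoxb5 (96304883 to 96305202; 2.84, 4 mutants). The other HoxC peak lay between Hoxc11 and Hoxc10 (102963769 to 102963935; 3.48) and recurred in R377H and R448Q only.

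The antibody to CTCF itself gave 127 Hox peaks in untreated WT cells and 85 in treated WT cells, where endogenous CTCF is degraded and the transgene is on. Treated cells kept 67 of the 127, 52.8% (43.7 to 61.7), against 56.9% of all untreated peaks. By cluster they kept 22 of 35 in HoxB, 23 of 41 in HoxA, 10 of 21 in HoxD and 12 of 30 in HoxC. Keeping followed peak value. All 20 Hox peaks in the top 10% of the untreated list were kept, all 11 of the next 15%, 17 of 22 in the rest of the upper 50%, and 19 of 74 below it. The same bands over all untreated peaks kept 100%, 100%, 75.9% and 25.1%. In the other direction, 68 of the 85 treated peaks, 80%, overlapped an untreated peak, against 91.7% of all treated peaks. The other 17 were weak, with values of 2.00 to 4.17, from the top 60.9% to the last place of the treated list. None of them had a FLAG peak in any genotype. Bands of value were not made over all treated peaks.

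A FLAG peak of any genotype lay at 30 of the 127 untreated CTCF antibody peaks, against 21.2% over all, and a WT FLAG peak at 16. All 20 of the top 10% had a FLAG peak in some genotype (94.2% over all in that band), and 14 had a WT one. Without any FLAG peak, the highest per cluster were in Hoxa3 (52186002 to 52187061; untreated value 12.99, treated 7.96) and between Hoxa9 and Hoxa10 (52228922 to 52230137; 9.23 and 3.22). In HoxB they were in Hoxb3 (96345835 to 96346547; 17.29 and 4.69) and between Hoxb13 and Hoxb9 (96265761 to 96266203; 10.21 and 7.29). HoxC had them on either side of Hoxc12 (102932301 to 102932787, 6.98 and 5.99; 102943187 to 102943710, 10.96 and 7.23). HoxD had one 5564 bp before Hoxd13 (74661591 to 74662661; 16.35 and 18.38) and a weak one between Hoxd3 and Hoxd1 (74757826 to 74757923; 4.19 untreated, none treated). None of these 8 was within the top 10% of the untreated list, the one in Hoxa3 alone had SMC3 in WT (2.74), and 4 had no SMC3 in any genotype.

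FLAG peaks outside the WT list made up a smaller share in the Hox regions than in the whole list in each of the 9 mutants. They numbered 4 of 10 in R339Q (57.4% over the whole list), 3 of 15 in R342C (33%), 6 of 22 in S354F (45.8%), 6 of 18 in K365T (39%), 8 of 23 in R377C (55.9%), 2 of 14 in R377H (33.6%), 10 of 22 in Q418R (70.2%), 5 of 18 in R448Q (40.6%) and 1 of 4 in H455R (58.1%). Merged over mutants they made 27 sites: 19 in 1 mutant, 6 in 2 to 4, and 2 in 5 or more. Not all of these are separate places. Those at 52239999 to 52240234, 102987913 to 102988161 and 74701704 to 74701919 shared a CTCF antibody peak with a WT site in both antibody lists. The Q418R one at 52209286 to 52209461 did so in the treated list only (value 123.46, rank 3647), with the site between Hoxa6 and Hoxa7. The HoxC site at 102987913 counted for 1 mutant, but FLAG peaks of 4 mutants overlapped it, and for the HoxD one at 74701704 3 did. In HoxB, the sites at 96294358 to 96294461 and 96294556 to 96294952 shared 1 antibody peak. At a CTCF antibody peak stood 18 of the 27 sites. The other 9 were each in 1 mutant, most of them in Q418R. Only 4 of the 10 outside peaks of Q418R were at an antibody peak, 2 of 4 in R339Q and 4 of 5 in R448Q. In the remaining mutants all outside peaks were. Of the 45 outside peaks, 23 (51.1%) had an SMC3 peak in the same mutant, against 31.1% over all outside peaks of the 9 lists; in Q418R it was 1 of 10 and in R377C 4 of 8.

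The 2 sites that at least 5 mutants share both had CTCF antibody peaks, within the top 11.8% of each antibody list. The first lay 9270 bp beyond Hoxa13 (52270150 to 52271546), with FLAG values of 7.01 in R339Q, 3.26 in R342C, 3.57 in S354F, 5.93 in K365T and 2.62 in R377C. Its CTCF antibody value was 62.36 untreated and 57.15 treated. SMC3 was there in WT (3.34) and 6 mutants. The second lay in the stretch between Hoxb13 and Hoxb9 (96223880 to 96224357), in R342C (3.01), K365T (2.50), R377C (6.14), R377H (4.38), Q418R (3.50) and R448Q (4.36). Its CTCF antibody value was 35.95 untreated and 62.51 treated, the top 10.8% of both lists. WT had no SMC3 there, and SMC3 peaks were present in K365T, R377C, R377H, Q418R and R448Q, each of which also had FLAG.

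The site at the Hoxd10 promoter printed above (74691613 to 74691985), singled out after its values were seen, had SMC3 in 3 of its 4 FLAG mutants. FLAG was present in S354F (2.91), K365T (4.86), R448Q (3.00) and H455R (5.16), and SMC3 in K365T (6.27), R448Q (5.82) and H455R (6.07) only. The CTCF antibody value there was 41.07 in untreated and 47.08 in treated cells. It was the sole FLAG site of H455R in the Hox regions outside the WT list, and ranked 412 of the 3855 peaks of that list.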

How the data were processed

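ChIPmentation peak lists for 22 groups were used, grouped by the labels. The submitters' processing notes name MACS2, Bowtie2, deepTools and Trim Galore and the build mm10, without versions. Each deposited list has 5 columns, the fifth being a score from the authors' peak caller of unstated measure, compared here only within a list. By title, both replicates are pooled in every list; peak names inside carry other library codes and replicate numbers, so a list's identity rests on the title. Between 1.3% and 5.26% of running peak numbers are missing, and no source states the filter behind this. Depth per list is unknown, so the number of peaks called limits each count.

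FLAG intervals repeated per summit were merged with the highest value. Overlap of at least 1 bp counted as shared (Python 3.11.15, numpy 2.4.6, pandas 2.3.3; tested on simulated lists and with bedtools 2.31.1). Intervals came from scipy 1.17.1 and figures from matplotlib 3.10.9. Gene spans and promoters came from RefSeq tables of GRCm38.p6; spans have no strand, and exons and introns were not used here. Named sites were all WT FLAG sites, FLAG sites outside the WT list in at least 5 mutants, per cluster the 2 highest untreated CTCF antibody peaks without FLAG and the 2 highest WT SMC3 peaks without FLAG and CTCF antibody peaks, and WT FLAG sites without WT SMC3; others are said to be chosen after their values were seen. The members and lists were chosen with earlier results of these data known. Alternatives were a reciprocal overlap of 50%, a match within 500 bp, the upper 50% of each list, equal numbers of top peaks, other windows, WT sites that treated CTCF antibody peaks overlap, leave-one-out over mutants and mutants with the name tag of WT. FLAG in untreated WT cells and IgG were not analysed here.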

Additional observations from a re-analysis of the deposited data

How the results depend on the processing

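No paired analysis was possible because each list pools both replicates, and the peak lists give neither depth nor replicate spread. Over 43 results, 231 of 321 alternative values stayed within the limit set for them, and 90 moved further. The limit was the interval for shares, a factor of 1.5 for counts and the SD over mutants for means. These counts and shares cannot change sign. Leaving out 1 mutant at a time kept the mean share of Hox WT FLAG sites kept between 66.4% and 76.6%. That mean, 70.1% in the main setting, was lower with a reciprocal overlap of 50% (44.4%) and with equal numbers of top peaks (48.1%). Both values counted as unmoved only because the SD over mutants was wide, 25.9. Keeping the WT sites that treated CTCF antibody peaks overlap removed no Hox site, so it tests nothing. The mutants with the name tag of WT were used for the mean SMC3 share alone, which was 92.5% against 91.7%. The causes of the changes below were not tested, apart from those that follow from shorter lists or a stricter overlap.

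With equal numbers of top peaks (3855 FLAG, 42030 SMC3, 116973 CTCF antibody), WT FLAG sites in the Hox regions numbered 6, WT SMC3 peaks 33 and untreated CTCF antibody peaks 79, of which 72.2% were kept in treated cells. FLAG kept 33.3% in R342C, 50% in R377C and R448Q, and 16.7% in R377H. WT SMC3 peaks kept were 60.6% in R377H, 78.8% in Q418R and 66.7% in R448Q. FLAG sites outside the WT list were 2 in R339Q, R377C, Q418R and H455R, 3 in S354F and 0 in R342C and R448Q. SMC3 was at 100% of the 6 sites in WT and in every mutant, mean 100%.

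With a reciprocal overlap of 50%, FLAG kept 12.5% in R339Q, 62.5% in S354F, 43.8% in K365T and 31.2% in R377C. WT SMC3 peaks kept were 27.3% in R339Q, 36.4% in R342C, 22.7% in S354F, 28.8% in K365T, 40.9% in R377C, 39.4% in R377H and H455R, 19.7% in Q418R and 30.3% in R448Q. FLAG sites outside the WT list were 8 in R339Q, 5 in R342C and R377H, 12 in S354F, 11 in K365T, 18 in R377C and 2 in H455R. SMC3 was at 50% of the WT FLAG sites in WT, 43.8% in R339Q, S354F, K365T and R377H, 37.5% in R342C, 56.2% in R377C and Q418R, and 6.25% in R448Q, with a mean of 44.4% over mutants. Treated cells kept 32.3% of untreated CTCF antibody peaks.

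With the upper 50% of each list by value there were 8 WT FLAG sites, 27 WT SMC3 peaks and 53 untreated CTCF antibody peaks, of which 75.5% were kept. FLAG kept 100% in R377C, and 3 sites lay outside the WT list in R448Q. WT SMC3 peaks kept were 81.5% in R342C and 77.8% in H455R. SMC3 was at 100% of the sites in WT and in all mutants but Q418R, mean 98.6%.

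With a match within 500 bp, WT SMC3 peaks kept were 90.9% in R339Q and R377H, 80.3% in K365T, 98.5% in R448Q and 83.3% in H455R, 1 FLAG site lay outside the WT list in R377H, and 66.9% of CTCF antibody peaks were kept. For FLAG sites outside the WT list, 10 kb around each gene gave 1 in R377H and 3 in R448Q, 50 kb around the cluster gave 10 in S354F and 14 in R377C, and no flank gave 2 in R339Q.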

Other observations

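Genes that work with or regulate Hox genes were counted in the same way, by WT FLAG sites within 10 kb. Of the 9 TALE homeobox genes (the Pbx, Meis and Pknox families, whose proteins bind DNA with Hox proteins), 5 had such a site, 11 sites in all, and a mean of 77.8% were kept over the 9 mutants. Of the 11 genes that flank the clusters, such as Evx1, Skap2 and Mtx2, 6 had one, 14 sites in all, with 78.6% kept. Of the 23 Polycomb genes, which encode repressors of Hox genes, 6 had one, 6 sites in all, with 70.4% kept. Of the 6 ParaHox genes, relatives of the Hox genes such as Cdx2, 2 had one, 3 sites in all, with 44.4% kept. Of the 10 trithorax genes, which encode activators of Hox genes, 4 had one, 4 sites in all, with 44.4% kept. H455R kept 1 site in each of these lists except the Polycomb list, where it kept 0. The mean over all sites was 63.3%, and with so few sites a list no difference between lists was tested.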
